A study of Drosophila pseudoobscura and Drosophila ananassae and Drosophila yakuba with 13 samples.

Results

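The spliceosomal small nuclear RNA (snRNA) genes described here were all genes whose symbol begins with "snRNA:" in the authors' tables of testis against ovary. They numbered 33 of 23522 table entries, of which 21 of 11576 were in D. ananassae and 12 of 11946 in D. pseudoobscura. The rule reads names alone and no measured value, although the group was proposed with earlier results of these data known. RNA came from gonads of virgin wild type flies aged 6 to 10 days and free of Wolbachia, with the attached ducts removed, and was sequenced as single reads of 50 bases. D. ananassae (stock 14024-0371.13, grown at 25 °C) had 2 testis and 2 ovary libraries, and D. pseudoobscura (stock 14011-0121.94, grown at 20 °C) had 2 testis and 3 ovary libraries. D. yakuba was not analysed here. The labels do not say whether libraries of a group came from separate flies, so the p-values may reflect technical spread only. Species and growth temperature cannot be told apart.

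Each snRNA is a short, non-coding RNA that joins Sm or Lsm proteins to form a small nuclear ribonucleoprotein, the building block of the spliceosome. U1 pairs with the 5′ splice site and U2 with the branch point, while U6, brought in by U4 and U5, lies at the catalytic centre. U11 and U12 take the places of U1 and U2 in the minor spliceosome, which removes a rare class of introns. U1, U2, U11 and U12 are made by RNA polymerase II, and U6 by RNA polymerase III. In the fly ovary, nurse cells are known to load the egg with RNA and with machinery, that of splicing included, for the early embryo. Mature snRNAs carry no poly(A) tail, whereas the libraries were made from RNA selected for poly(A), so the reads measure what passed that selection and not the cellular amount of snRNA.

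By class, the D. ananassae table listed 9 copies of U1, 7 of U2, 2 of U6, 2 of U11 and 1 of U12, and the D. pseudoobscura table listed 4 of U1, 6 of U2 and 2 of U6. No copy of U4, U5 or another class was listed under an snRNA symbol for either species. Copies of a class are in general near-identical, though the sequences of those listed were not compared here. Reads can be split among near-identical copies, so the copies' values are neither independent nor certain one by one. The number after the class (U2:1) is part of the symbol, and a shared number does not show that copies of the 2 species descend from the same gene. RefSeq annotates 33 genes of snRNA biotype in the D. pseudoobscura assembly UCI_Dpse_MV25 but matched 0 of the 12 symbols, so no length or sequence is given.

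The tables hold 1 fold change, 1 average and 1 test per gene, and no value per library, so depth is unknown and no spread between libraries could be computed. A negative log2 fold change is read as higher in ovary, which the file headers do not state. The germline markers lie on the sides this reading gives. In the authors' deposited tables TrxT, a testis thioredoxin, stood at 4.56 (D. ananassae) and 5.89 (D. pseudoobscura), and the ovary markers, of which 2 and 3 of 9 were measured, lay between -17.3 and -3.48. Most other markers of both tissues were not measured under their symbols. A gene is called ovary-biased when its fold is negative and the authors' edgeR likelihood-ratio test gives an adjusted p under 0.05. The ± values are approximate standard errors on the log2 scale, the size of a fold divided by the square root of its likelihood-ratio statistic, and are too small for the largest folds. Errors of differences between copies treat the copies as independent, which they are not. Because the tissues are mixtures of cells, fewer cells of a type and less RNA per cell cannot be told apart.

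In the authors' deposited table all 21 snRNA genes of D. ananassae were called ovary-biased, as were 53.8% of all genes. Their log2 fold changes ran from -6.92 to -1.51 with a median of -3.86, or 14.5 times more in ovary, against a median of -0.93 over all genes in the authors' deposited table. The 12 snRNA genes of D. pseudoobscura were called ovary-biased too, against 44.1% of all genes of the authors' deposited table. Their fold changes ran from -6.08 to -2.73 with a median of -5.03, or 32.6 times more in ovary, against -0.85 over all genes in the authors' deposited table. With each tissue's level derived from the fold and the average and summed over copies, the ratio of ovary to testis was 10.6 in D. ananassae and 18.9 in D. pseudoobscura. Relative to the median gene every member stayed on the ovary side in both tables. Of the 3 classes listed in both species, the median was lowest for U1, then U2, and nearest to 0 for U6.

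**Figure D1:**
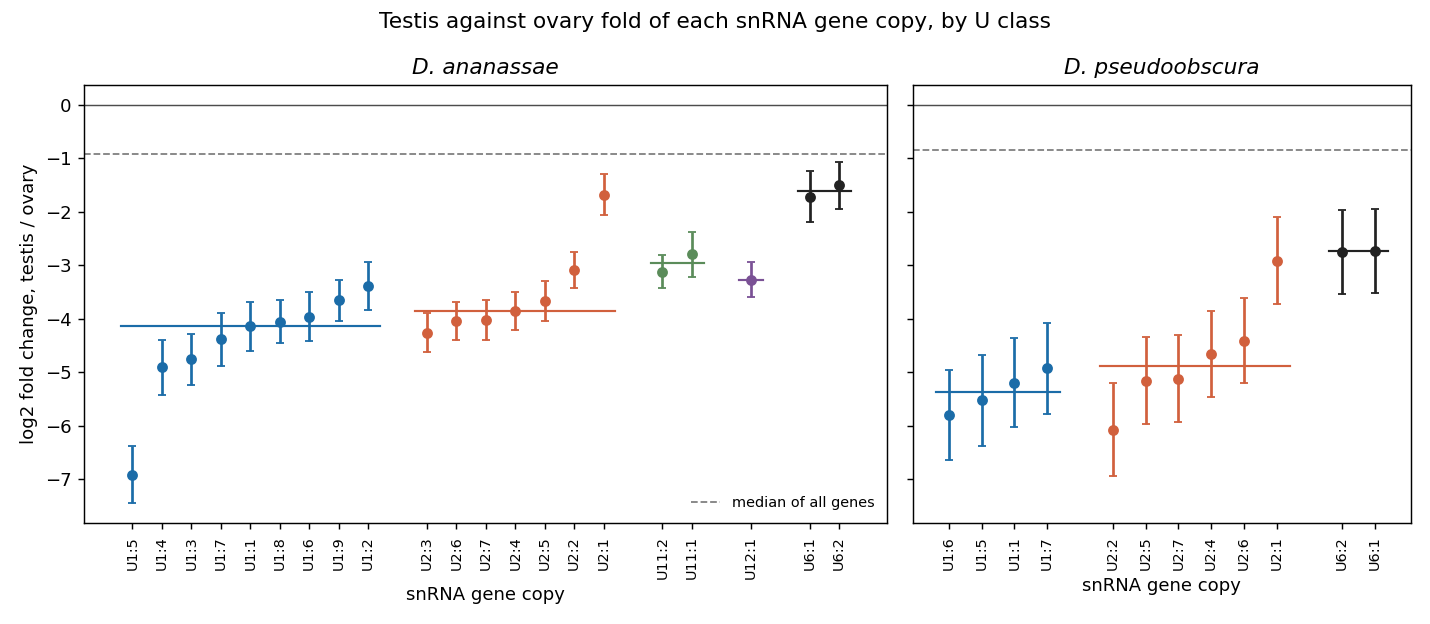
Log2 fold change of testis over ovary (vertical axis) for each snRNA gene copy, grouped by U class and sorted within it; points are the deposited folds, bars are plus and minus 1 approximate standard error, short lines are class medians and the dashed line is the median of all genes. All 33 points lie below 0, with U6 and U2:1 nearest to it in both species.

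U1 is the snRNA that defines the 5′ splice site. In D. ananassae its 9 copies had fold changes from -6.92 to -3.39, and their median was -4.15, by the authors' deposited table. The lowest was U1:5 at -6.92 ± 0.54 (adjusted p = 2.85e-37 by edgeR's likelihood-ratio test), at the 2.85 percentile of all folds of the authors' deposited table. Next came U1:4 at -4.91 ± 0.51 and U1:3 at -4.76 ± 0.48, and then U1:7 at -4.39 ± 0.50 and U1:1 at -4.15 ± 0.45 in the authors' deposited table. The remaining copies were U1:8 at -4.06 ± 0.41, U1:6 at -3.96 ± 0.46, U1:9 at -3.66 ± 0.38 and U1:2 at -3.39 ± 0.45 in the authors' deposited table. U1:5 thus lay 2.01 ± 0.74 below its nearest neighbour, while the other 8 copies spanned -4.91 to -3.39 in steps smaller than their errors. This gap was noticed after the values were seen, and its error is too small at so large a fold. The copy of highest average expression, U1:9, had one of the smaller folds (adjusted p = 7.94e-22 by edgeR's likelihood-ratio test in the authors' deposited table).

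In D. pseudoobscura the 4 copies of U1 were close together. They stood at -5.81 ± 0.85 (U1:6, also the copy of highest average), -5.53 ± 0.86 (U1:5), -5.20 ± 0.83 (U1:1) and -4.93 ± 0.84 (U1:7) in the authors' deposited table. The whole spread of 0.87 was smaller than the error of the difference between its ends, 1.19. U1:5, the copy of lowest fold in D. ananassae, lay among the others here. Adjusted p-values ran from 1.94e-11 to 1.22e-08 by edgeR's likelihood-ratio test in the authors' deposited table.

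U2, which marks the branch point, had 7 copies in D. ananassae, whose median fold change was -3.86 by the authors' deposited table. U2:3 was the lowest at -4.26 ± 0.37, followed by U2:6, the copy of highest average, at -4.04 ± 0.36 and U2:7 at -4.02 ± 0.37 in the authors' deposited table. U2:4 stood at -3.86 ± 0.36, U2:5 at -3.67 ± 0.37 and U2:2 at -3.09 ± 0.34 in the authors' deposited table. These 6 copies lay within 1.17 of each other. U2:1 lay outside them, at -1.68 ± 0.39 (adjusted p = 1.90e-05 by edgeR's likelihood-ratio test in the authors' deposited table), 1.41 ± 0.51 above its nearest neighbour.

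By the authors' deposited table the 6 U2 copies of D. pseudoobscura had a median of -4.89. The lowest was U2:2 at -6.08 ± 0.87 (adjusted p = 1.02e-11 by edgeR's likelihood-ratio test), and U2:5 at -5.16 ± 0.82 and U2:7 at -5.12 ± 0.82 followed in the authors' deposited table. U2:4, the copy of highest average, stood at -4.66 ± 0.80 and U2:6 at -4.41 ± 0.79 in the authors' deposited table. U2:1 was again the copy nearest to 0, at -2.91 ± 0.81 (adjusted p = 0.000531 by edgeR's likelihood-ratio test in the authors' deposited table). Its gap to the nearest U2 copy, 1.5 ± 1.1, was smaller than 2 standard errors in this species. That U2:1 stood apart was noticed after its values were seen.

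U6, the RNA at the catalytic centre and the one class here made by RNA polymerase III, had the class median nearest to 0. In D. ananassae U6:1 stood at -1.72 ± 0.48 and U6:2, the copy of higher average, at -1.51 ± 0.44 (adjusted p = 0.000423 and 0.000905 by edgeR's likelihood-ratio test) in the authors' deposited table. In D. pseudoobscura the 2 copies were nearly equal, U6:2 at -2.76 ± 0.78 and U6:1, of higher average, at -2.73 ± 0.79 (adjusted p = 0.000715 and 0.000863 by edgeR's likelihood-ratio test) in the authors' deposited table. The copies of U6 thus differed by 0.21 ± 0.65 in D. ananassae and by 0.03 ± 1.11 in D. pseudoobscura. In D. ananassae every U1 copy, 9 of 9, and 6 of 7 U2 copies lay below both U6 copies, the exception being U2:1. In D. pseudoobscura 4 of 4 U1 and 6 of 6 U2 copies did. The U6 median was 2.53 above that of U1 and 2.25 above that of U2 in D. ananassae, and 2.62 and 2.15 above them in D. pseudoobscura. No test was made of these differences, because copies are not replicates and share libraries.

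The same 3 symbols, U6:1, U6:2 and U2:1, had the 3 smallest folds in each species. In the authors' deposited tables the members other than these ran from -6.92 to -2.80 (18 genes, D. ananassae) and from -6.08 to -4.41 (9 genes, D. pseudoobscura). With Bonferroni adjustment over all genes, which calls 44.7% and 27.4% of all genes as ovary-biased, the call of each of these 3 was lost in both species and 18 and 9 members kept theirs. With a minimum of 2-fold relative to the median gene, which 36.3% of all D. ananassae and 39.1% of all D. pseudoobscura genes met towards ovary, the 3 were lost in D. ananassae alone, where they stood between -0.79 and -0.58 after centring.

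The minor spliceosome was represented in D. ananassae alone. U12:1, the counterpart of U2, had a fold change of -3.27 ± 0.32 (adjusted p = 5.52e-24 by edgeR's likelihood-ratio test in the authors' deposited table). U11:2 and U11:1, counterparts of U1, stood at -3.12 ± 0.31 and -2.80 ± 0.43 (adjusted p = 5.64e-24 and 8.79e-11 by edgeR's likelihood-ratio test) in the authors' deposited table. The 3 genes lay within 0.47 of each other, between the U6 copies and the median of U1, with class medians 0.59 (U12) and 0.90 (U11) above that of U2. All 3 lay above every U1 copy and within the range of the U2 copies, U11:1 only because U2:1 extends that range.

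The snRNA genes lay low in the range of expression. On the log2 average, rescaled to a total of 1000000 and not corrected for length, the members stood between -0.61 and 2.23 in D. ananassae, which is the 5.31 to 23.2 percentile of that table. In D. pseudoobscura they stood between -1.01 and -0.19, the 4.65 to 8.94 percentile. The lowest averages of any gene were -1.51 and -2.12. Low averages were found at both ends of the range of folds, as U1:5 of D. ananassae had an average of -0.59 and U6:1 one of -0.61. Their testis levels, derived from fold and average on the linear scale of the same total, were 0.011 and 0.305. That of U2:2 in D. pseudoobscura was 0.012. At levels this low the size of a large fold is poorly determined. At averages within 0.1 of that of U1:5, the member of lowest fold in D. ananassae, 13 of 167 other genes had a lower fold, down to -9.87, and around U2:2 of D. pseudoobscura 37 of 120 had one, down to -12.3, in the authors' deposited tables. Among the 2048 other genes of D. ananassae within the members' range of averages 51.5% were called ovary-biased, and the authors' deposited table gave them a median fold of -0.99. A fold at or below the members' median was found in 22.5% of them. With a minimum average of 0 and p adjusted over the genes that meet it, 13 of 13 members of D. ananassae were called, against 54.5% of all such genes. Among the 501 such genes of D. pseudoobscura 56.1% were called so, with a median fold of -2.77 by the authors' deposited table, and 37.1% were at or below the members' median.

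**Figure D2:**
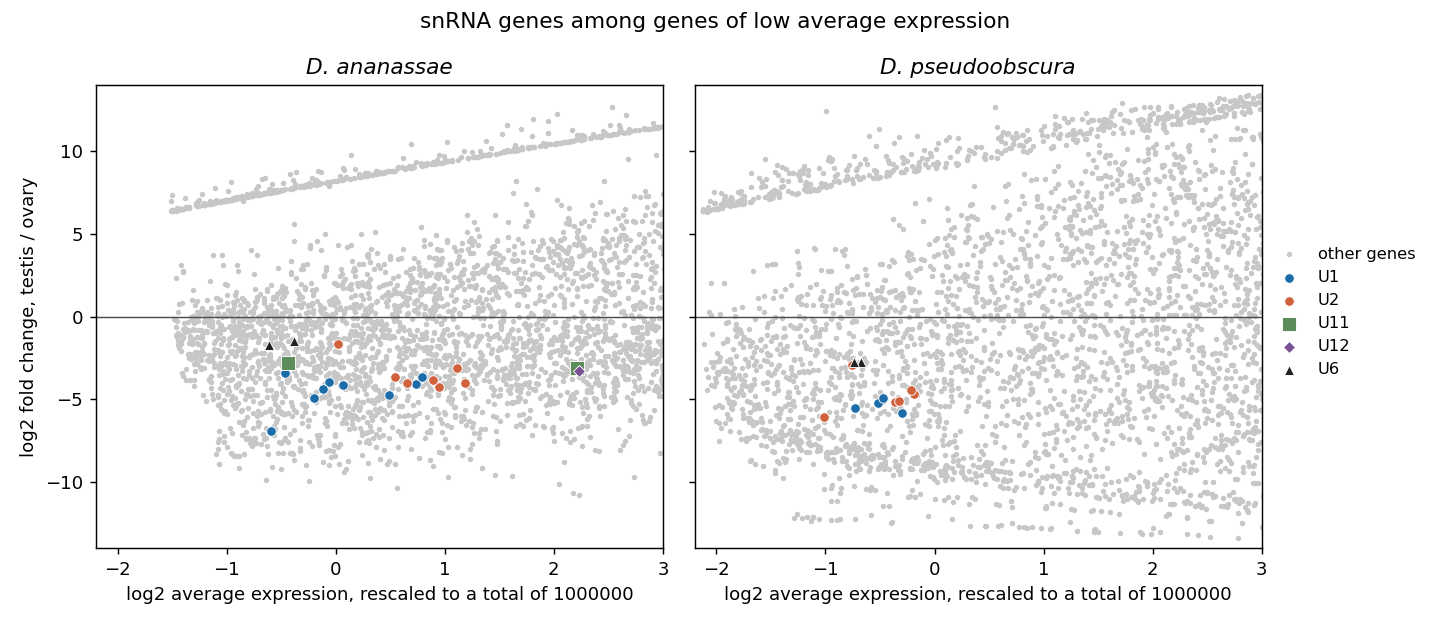
Log2 fold change of testis over ovary (vertical axis) against the rescaled log2 average expression (horizontal axis) for genes of each table in grey, with snRNA genes coloured by U class; genes of higher average or larger fold lie outside the window. The members have averages from -0.61 to 2.23 in D. ananassae and from -1.01 to -0.19 in D. pseudoobscura, and lie below 0 with other genes both above and below them.

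Between species, 12 snRNA symbols were in both tables, all of the D. pseudoobscura members. The fold was more negative in D. pseudoobscura for 11 of the 12, and the median difference was -1.08. These symbols are copies of U1, U2 and U6 that can share reads, so their directions are not independent. The exception was U1:5, for which the authors' deposited tables gave -6.92 (D. ananassae) and -5.53 (D. pseudoobscura), a difference of 1.39 with a 95% interval from -0.59 to 3.37. Each difference was tested two-sided with the approximate errors and adjusted over the 36 symbols listed in both tables, of which 41.7% passed. Among the 12 snRNA symbols 1 passed, against 14 of the other 24. The snRNA that passed was U2:2, with folds of -3.09 (D. ananassae) and -6.08 (D. pseudoobscura) from the authors' deposited tables. Its difference of -2.99 had a 95% interval from -4.83 to -1.15 and an adjusted p of 0.00513 by this normal test. With errors 1.5 times as large the adjusted p was 0.121, while 25% of the 36 symbols passed, so this call depends on the error.

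For the other 11 symbols the intervals included 0. U1:6 came nearest to passing, with a difference of -1.85, an interval from -3.73 to 0.04 and an adjusted p of 0.116 by the normal test. The pair of U6 copies differed by -1.01 (interval -2.81 to 0.79) and -1.25 (-3.01 to 0.51), and U2:1 by -1.23 (-2.99 to 0.52). U2:6, with a difference of -0.37 and an interval from -2.07 to 1.33, was the closest match between species. By class, the medians over all copies were lower in D. pseudoobscura by similar amounts, -1.22 for U1, -1.03 for U2 and -1.13 for U6. The errors were larger in D. pseudoobscura, from 0.78 to 0.87 against 0.31 to 0.54 in D. ananassae. The other 24 symbols in both tables had a median difference of -0.21. Other genes within the members' range of averages also had a lower median in D. pseudoobscura, -2.77 against -0.99 in the authors' deposited tables. These ranges are unlike, -1.01 to -0.19 (501 genes) in D. pseudoobscura and -0.61 to 2.23 (2048 genes) in D. ananassae. The 2 medians are therefore not matched for average expression. By rank, 15.4% of all D. ananassae genes and 18.2% of all D. pseudoobscura genes had a fold at or below the members' median.

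**Figure D3:**
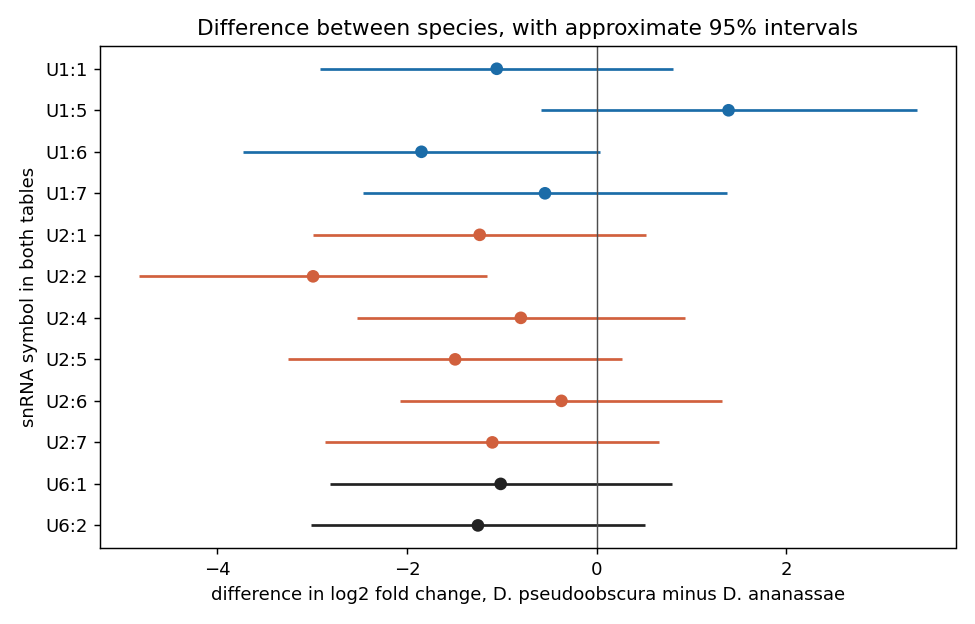
Difference in log2 fold change between the species (horizontal axis, D. pseudoobscura minus D. ananassae) for the 12 snRNA symbols in both tables; points are differences and lines are approximate 95% intervals. U2:2 at -2.99 has an interval that leaves out 0, and U1:5 at 1.39 is the point to the right of 0.

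Of the proteins that work with these RNAs, 39 snRNP proteins and 31 factors of snRNA transcription, processing and assembly were looked up by symbol. They included the Sm and Lsm core, Integrator and the Smn complex. None of these was found in either table, since most genes carry only an identifier, so their direction was not analysed here. Of 6 other small non-coding RNAs looked up, the RNA of ribonuclease P, which trims tRNA precursors, was found in D. ananassae. It was ovary-biased at -4.95 ± 0.43 (adjusted p = 1.47e-29 by edgeR's likelihood-ratio test in the authors' deposited table), within the range of the U1 copies only because U1:5 extends that range. Small nucleolar RNAs (snoRNAs), which guide the modification of ribosomal RNA and other RNAs, reached further towards ovary in most cases. In D. ananassae 36 of 76 lay below every snRNA gene, and 1 of the 21 snRNA genes lay below their median, which was -6.75 by the authors' deposited table. The D. pseudoobscura table had 24 of 27 below every snRNA gene, and the authors' deposited table gave a median of -9.26. Called ovary-biased were 73 of 76 snoRNAs in D. ananassae and 26 of 27 in D. pseudoobscura, against 53.8% and 44.1% of all genes. The snoRNA folds ran up to 10.9 in D. ananassae, where 2 were testis-biased, and up to -0.19 in D. pseudoobscura. Genes of 5.8S ribosomal RNA, 46 in D. ananassae and 2 in D. pseudoobscura, were all called towards ovary, against 53.8% and 44.1% of all genes. Their medians were -5.54 and -5.83 by the authors' deposited tables. Transfer RNA genes lay nearer to 0 in D. ananassae, with a median of -1.67 by the authors' deposited table. Of these, 3 of 5 were called towards ovary, beside 53.8% of all genes. In D. pseudoobscura the 3 tRNA genes ran from -4.45 to 7.69, and 0 were called by edgeR's likelihood-ratio test in the authors' deposited table, with 1 at an unadjusted p under 0.05.

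Markers of other cell types were few. In D. pseudoobscura 3 of 6 muscle genes were measured, all ovary-biased between -9.21 and -3.0, and the 2 of 3 accessory gland genes measured stood at 5.56 and 9.05 in the authors' deposited table. The accessory gland folds had approximate errors of 1.05 and 2.56 and rested on low rescaled averages, -0.32 and -0.35. Averages of the muscle genes were 6.29 to 8.97. In D. ananassae neither list had a measured gene, and fat body genes were measured in neither table. Their part in the snRNA result was not tested.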

How the data were processed

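Polyadenylated RNA from gonads was made into libraries with random priming by a TruSeq kit, per the labels' protocols, with no statement on strand. Tools named in the submitters' processing notes are edgeR, with no version, Cuffdiff 2.1.0, HTSeq 0.5.4p3, Bowtie2 2.1.0 and Cufflinks 2.1.0. Not given in the sources used here are the genome builds, annotation, normalization, count filter and the handling of reads that map to several copies. Per the file headers, the authors deposited for each gene the log2 fold change, an average on the log2 scale headed log CPM, the likelihood-ratio statistic (a score), its p-value and the false discovery rate (adjusted p here). The deposited p-value matched the chi-square tail of the score with 1 degree of freedom within 0.49%, and the adjusted p the Benjamini-Hochberg value within 0.82%.

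Linear averages summed to far over 1000000 and were rescaled to that total in each table. The table's title names testis before ovary, so positive folds were read as higher in testis. The approximate standard error was tested on simulated data, where it fell below the true spread for large folds. The simulated counts had a fixed ovary level and a known dispersion, so the check does not cover the members' own unknown counts. Species differences used a two-sided normal test with these errors. Every member was named with its fold and approximate error, and some also with an adjusted p. The member of highest average was marked in classes of more than 1 copy, except U11. Members, by a rule on names alone, lists and tests were chosen with earlier results of these data known. Alternatives were other adjustments, minimum folds and averages, centring on the median gene, class medians, and levels summed over copies, each tissue's level being derived from the fold and the average. Depth per library is unknown, so no interval on counts was computed. Computations ran in Python 3.11.15 (pandas 2.3.3, scipy 1.17.1, numpy 2.4.6), figures in matplotlib 3.10.9.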

Additional observations from a re-analysis of the deposited data

Results flagged for a closer look

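U2:2 was singled out because its contrast of testis and ovary differed between species. The difference in log2 fold change, D. pseudoobscura minus D. ananassae, was -2.99 (adjusted p = 0.00513, two-sided normal test with approximate errors), and with errors 1.5 times as large the adjusted p was 0.121. Whether the 2 copies of this number descend from the same gene is not known, and species and growth temperature cannot be told apart.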

How the results depend on the processing

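Of 41 recomputed values 26 were classed as the same, 13 as moved and 2 as weaker. A value classed as the same was not always unchanged. With levels summed over copies, -5.03 became -4.24 in D. pseudoobscura, classed as the same. In D. ananassae -3.86 became -3.41, classed as moved. Bonferroni adjustment cut the members called from 21 to 18 and from 12 to 9, also classed as the same. Sign is no check on many of the recomputed values, because counts cannot be negative and summed levels of ovary-biased members stay ovary-biased. Centring on the median gene moved the members' median to -2.94 in D. ananassae and -4.18 in D. pseudoobscura. The D. ananassae class medians became -3.22 (U1), -2.94 (U2), -2.34 (U12), -2.03 (U11) and -0.69 (U6), and those of D. pseudoobscura -4.52 (U1), -4.04 (U2) and -1.90 (U6). In D. ananassae the median over U classes was -3.27, and the fold of levels summed over copies was -3.41 for all members and -3.48 for U2, against -4.24 and -4.44 in D. pseudoobscura. With a minimum rescaled log2 average of 0, 13 members of D. ananassae were tested and all 13 were called, where 54.5% of all genes were, and no member of D. pseudoobscura reached that minimum, so it has no value. With errors 1.5 times as large, a choice made after seeing the data, 0 snRNA symbols passed the species test (normal test, 1 at an unadjusted p under 0.05), against 25% of all 36 symbols. Leaving out libraries was not possible, because the tables hold no value per library. No paired analysis was possible because the columns carry no replicate numbers. Unknown depth and low averages limit how well single copies can be told apart.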
